A study of Danio rerio with 4 samples.

Results

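The genes described here are the 1466 that the authors listed as higher (893 genes) or lower (573 genes) in zebrafish retina at 4 days post-injury (dpi) than in uninjured retina, out of 2543 genes in any list of the series. Each was classed by whether its gene identifier was also in the list of genes called higher, or lower, at 4 dpi with cyclopamine, in both of those lists, or in neither. The 4 dpi tables give a value for each library. The cyclopamine lists hold identifiers and symbols alone, so no level with cyclopamine can be given, and the classes record where a gene was listed, not how far cyclopamine moved it.

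Cyclopamine is a plant alkaloid that binds and inhibits Smo, the membrane protein that passes on the Hedgehog signal. When a Hedgehog ligand such as Shh occupies its receptor Ptch1, Smo is released from inhibition and Gli transcription factors activate target genes. In the injured zebrafish retina, Müller glia, the radial glia that span the tissue, re-enter the cell cycle, give rise to progenitors and replace lost neurons.

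The series measured total RNA of whole retina from wild type fish of 10 months, with 1 library per condition. The retina at 4 dpi with cyclopamine came from fish kept in 10 µM cyclopamine for 4 days after injury, the retina at 4 dpi from injured fish with no agent, and the retina at 12 hours post-injury (hpi) from injured fish with no agent. The uninjured retina, from fish with no injury and no agent, is the library with which each of the other 3 was compared. The labels do not say whether retinas of several fish were pooled, nor in what cyclopamine was dissolved. Injuries were needle pokes according to the study's methods, so each injured retina holds wounded and intact tissue. With 1 library per condition there is no replicate check and no test across samples, and "higher" and "lower" below give the order of 2 libraries. In whole tissue, fewer cells of a type and less RNA per cell cannot be told apart. The retina label could be checked only on called genes: among the photoreceptor genes, *guca1d*, a guanylate cyclase activator, had 48.4 FPKM at 4 dpi and 165 FPKM in uninjured retina. FPKM counts sequenced fragments per length of transcript and per amount of mapped sequence in a library, and the read depth behind the values is unknown.

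Of the 893 genes higher at 4 dpi, 352 (39.4%) were also in the cyclopamine higher list only, 536 (60.0%) were in neither cyclopamine list, 3 were in the lower list, and 2 were in both. Counting those 2, the share in the cyclopamine higher list was 39.6%, which is the background for every group of higher genes below. Of the 573 genes lower at 4 dpi, 258 (45.0%) were in the cyclopamine lower list only, 312 (54.5%) in neither, 2 in the higher list and 1 in both, and the background share was 45.2%. Seen from the other side, the 354 shared genes were 54.0% of the 655 genes in the cyclopamine higher list, and the 259 shared genes were 34.7% of the 747 in the cyclopamine lower list. The lower list with cyclopamine thus held more genes with no call at 4 dpi, 483 (64.7%), than the higher list, 298 (45.5%). Both comparisons used the same uninjured library, and the overlap was not tested.

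**Figure D1:**
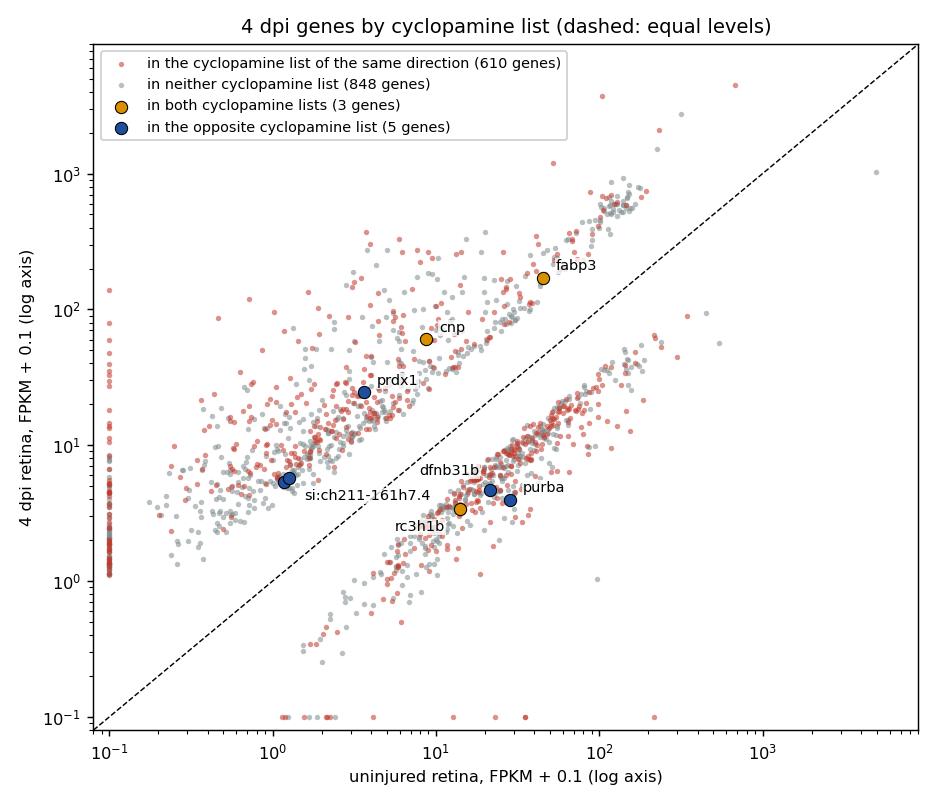
FPKM of each of the 1466 genes at 4 dpi (vertical) and in uninjured retina (horizontal), 0.1 added, on log axes, with 1 library each and colour for the cyclopamine class. The 610 genes found in the matching cyclopamine list and the 848 in neither list overlap over most of their ranges, and the 8 genes in the opposite list or in both are drawn larger. Points at the left and bottom edges are genes listed at 0 in uninjured retina and at 4 dpi.

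The higher genes that were also listed with cyclopamine had larger ratios at 4 dpi than those in neither list. The uninjured medians of these classes were alike, but the upper quartile was higher for genes in neither list. Shared higher genes had a median of 19.4 FPKM at 4 dpi (quartiles 8.58 and 67.4) and genes in neither list 14.6 FPKM (5.29 and 71.0). In uninjured retina the medians were 2.099 FPKM (0.557 and 6.21) for shared genes and 2.228 FPKM (0.565 and 10.3) for those in neither list. The median log2 ratio of 4 dpi to uninjured FPKM, with 0.1 FPKM added to both, was 3.06 for shared genes (quartiles 2.36 and 4.28) and 2.49 for genes in neither list (2.04 and 3.57), against 2.69 for all 893. Leaving out genes listed at 0 in uninjured retina, which were 54 of the shared genes (15.3%) and 59 of those in neither list (11.0%), the medians were 2.75 and 2.39. A log2 ratio of at least 4 was found for 108 shared genes (30.7%) and 94 in neither list (17.5%). With the genes in 4 bins of equal size from the smallest ratios to the largest, the share in the cyclopamine higher list was 29.6%, 33.2%, 41.3% and 54.5%. By level at 4 dpi it was 26.9%, 43.0%, 49.3% and 39.3%, lowest for genes under 6.29 FPKM and not highest for the most abundant.

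The lower genes showed little of this by size of the ratio, but their share rose with the uninjured level. Shared lower genes had a median of 6.38 FPKM at 4 dpi and genes in neither list 5.31 FPKM, with 28.2 and 22.0 FPKM in uninjured retina. The median log2 ratios were -1.96 and -1.91. By size of the ratio, the share in the cyclopamine lower list was 42.7%, 44.06%, 43.4% and 50.7% from the smallest bin to the largest, and by uninjured level it was 37.8%, 44.06%, 45.5% and 53.5%. The number of annotated transcripts also moved with the class: 186 shared higher genes (52.8%) and 222 in neither list (41.4%) had 1 transcript, and so had 128 shared lower genes (49.6%) and 98 in neither list (31.4%). The span of the locus had a median of 35079 bases for shared lower genes and 57339 bases for lower genes in neither list. For higher genes the medians were 9894 bases for shared genes and 10215 bases for those in neither list. Over all higher genes the median was 10113 bases, and over all lower genes 47380 bases. The part of gene structure in the classes, or in the direction of the calls, was not tested.

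**Figure D2:**
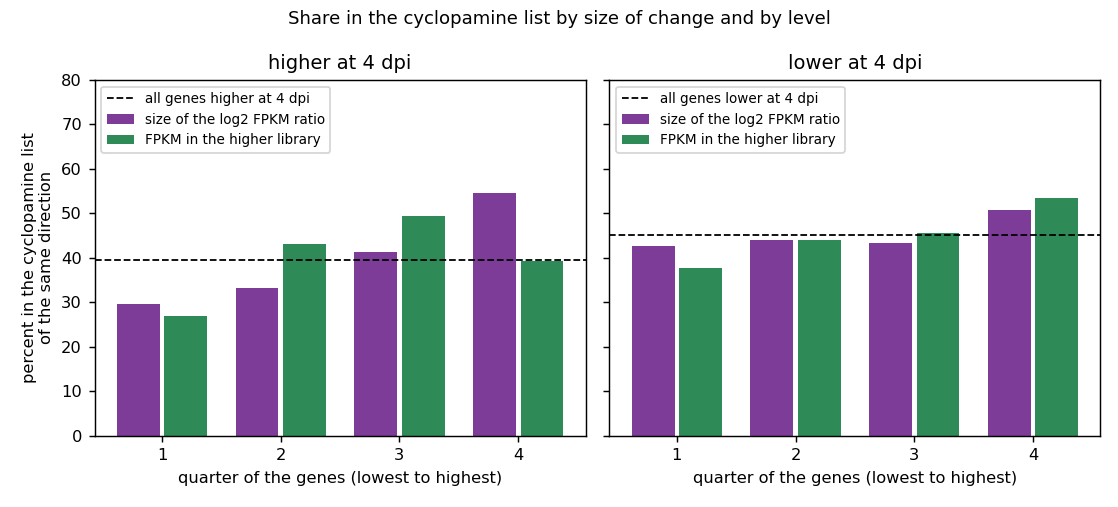
Percent of genes that were also called that way with cyclopamine, in 4 equal bins of the size of the log2 FPKM ratio (purple) and of the FPKM in the higher library (green), with the share of all genes dashed. For higher genes the share runs from 29.6% to 54.5% over the bins of the ratio, and for lower genes it stays between 42.7% and 50.7%. Over the bins of level it lies between 26.9% and 49.3% for higher genes, and rises from 37.8% to 53.5% for lower genes.

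Only 5 genes were in opposite lists without and with cyclopamine. *prdx1*, a peroxiredoxin that removes hydrogen peroxide (chromosome 2, 6194608 to 6203806, minus strand), had 24.5 FPKM at 4 dpi and 3.51 FPKM in uninjured retina, a log2 ratio of 2.77, and was in the cyclopamine lower list. *si:ch211-161h7.4* (chromosome 24, 20748194 to 20763830, minus strand) had 5.65 FPKM at 4 dpi and 1.16 FPKM in uninjured retina, a log2 ratio of 2.18, and was in the lower list too. In the other direction, *purba*, a homologue of the purine-rich element binding proteins (chromosome 5, 13142949 to 13145837, minus strand), had 3.89 FPKM at 4 dpi and 28.4 FPKM in uninjured retina, a log2 ratio of -2.84, and was in the cyclopamine higher list. *dfnb31b*, a homologue of whirlin, a scaffold protein of photoreceptors and hair cells (chromosome 5, 28403742 to 28522462, minus strand), had 4.60 FPKM at 4 dpi and 21.3 FPKM in uninjured retina, a log2 ratio of -2.19, and was in the higher list. Positions are those of the authors' tables.

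Another 3 genes of the 4 dpi tables were in both cyclopamine lists. *fabp3*, a fatty acid binding protein, had 171 FPKM at 4 dpi and 45.4 FPKM in uninjured retina. *cnp*, a homologue of an enzyme known from myelinating glia of mammals, had 60.0 FPKM at 4 dpi and 8.65 FPKM in uninjured retina. *rc3h1b*, a homologue of the mRNA-decay factor roquin, had 3.28 FPKM at 4 dpi and 13.9 FPKM in uninjured retina. All 8 genes have 2 to 8 annotated transcripts, and none has 1, whereas 634 of the 1458 genes of the other classes (43.5%) have 1. The cyclopamine lists are labelled as gene lists, yet they repeat identifiers and hold 12 genes in both directions, which a list with 1 row per gene cannot do. Whether they count transcripts was not tested, nor whether an opposite listing concerns different transcripts of a gene. At 12 hpi, where the tables count transcripts, the listed transcript of *prdx1* had 0.000331 FPKM at 12 hpi and 3.16 FPKM in uninjured retina, and that of *purba* had 10.7 FPKM and 28.4 FPKM. For *prdx1* a transcript was thus listed as lower at 12 hpi while the gene was listed as higher at 4 dpi.

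Hedgehog genes were few among the calls. *smo* had 4.78 FPKM at 4 dpi and 1.13 FPKM in uninjured retina, and *gli2a*, a Gli transcription factor, had 5.01 FPKM at 4 dpi and 1.30 FPKM in uninjured retina. Both were higher at 4 dpi and in neither cyclopamine list. *ccnd1*, the G1 cyclin that many mitogenic pathways induce, had 57.4 FPKM at 4 dpi and 3.09 FPKM in uninjured retina, a log2 ratio of 4.17, and was in the cyclopamine higher list. These were 3 genes of a list of 46 symbols. Ligands and Patched receptors of that list were in none of the 4 dpi or cyclopamine lists, where genes without a call have no value.

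None of the 8 genes of Delta-Notch signalling that were higher at 4 dpi was in a cyclopamine list, against 39.6% of all higher genes. Delta ligands on one cell activate Notch receptors on its neighbour, and Her and Hes repressors carry the signal to the genome. The log2 ratios of the 4 Delta ligand genes ran from 2.83 for *dlc* to 4.54 for *dlb*. *dlb* had 6.45 FPKM at 4 dpi and 0.181 FPKM in uninjured retina, *dla* had 6.51 and 0.269 FPKM, *dld* had 7.26 and 0.439 FPKM, and *dlc* had 10.3 and 1.36 FPKM. The receptor gene *notch1a* had 9.70 FPKM at 4 dpi and 1.80 FPKM in uninjured retina. Of the repressors, *her4.2* had 7.62 FPKM at 4 dpi and 0.286 FPKM in uninjured retina and *hes2.2* had 8.48 and 1.09 FPKM. *insm1a*, a zinc-finger repressor counted with this list and with the progenitor list, had 35.0 FPKM at 4 dpi and 2.83 FPKM in uninjured retina. The median log2 ratio of the 8 was 3.68, above the 2.49 of all higher genes in neither list. With cyclopamine, *her12* and *MIB2*, which encodes a ubiquitin ligase acting on Delta, were listed as lower and had no call at 4 dpi.

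Of the 12 progenitor and proneural regulators that were higher at 4 dpi, 5 were also higher with cyclopamine (41.7%) and 7 were in neither list. The shared ones were *sox11b*, a Sox factor of immature neurons, with 74.1 FPKM at 4 dpi and 6.002 FPKM in uninjured retina, *mych*, a Myc family gene, with 20.7 and 0.950 FPKM, *zic2b*, a zinc-finger factor, with 14.2 and 0.947 FPKM, *ascl1b*, a proneural factor, with 7.35 and 1.39 FPKM, and *sall1b* with 4.90 and 0.566 FPKM. Others, besides *insm1a*, were in neither list. *sox2*, a stem cell factor also present in Müller glia, had 23.9 FPKM at 4 dpi and 7.54 FPKM in uninjured retina, and *tgif1*, a homeobox repressor, had 25.8 and 7.31 FPKM. Factors of neuronal fate were in this class too. *olig2* had 15.4 FPKM at 4 dpi and 0.671 FPKM in uninjured retina, *atoh7*, required for ganglion cells, had 11.3 and 1.15 FPKM, and *foxn4*, which acts in amacrine and horizontal cells, had 4.87 and 0.453 FPKM. Each of these genes had a higher level in the 4 dpi library than in the uninjured library, and the classes overlap in level. *mych* was also listed at 12 hpi, with 26.0 FPKM at 12 hpi and 0.579 FPKM in uninjured retina for the listed transcript. *mycb* was in the cyclopamine higher list and not in a 4 dpi list.

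**Figure D3:**
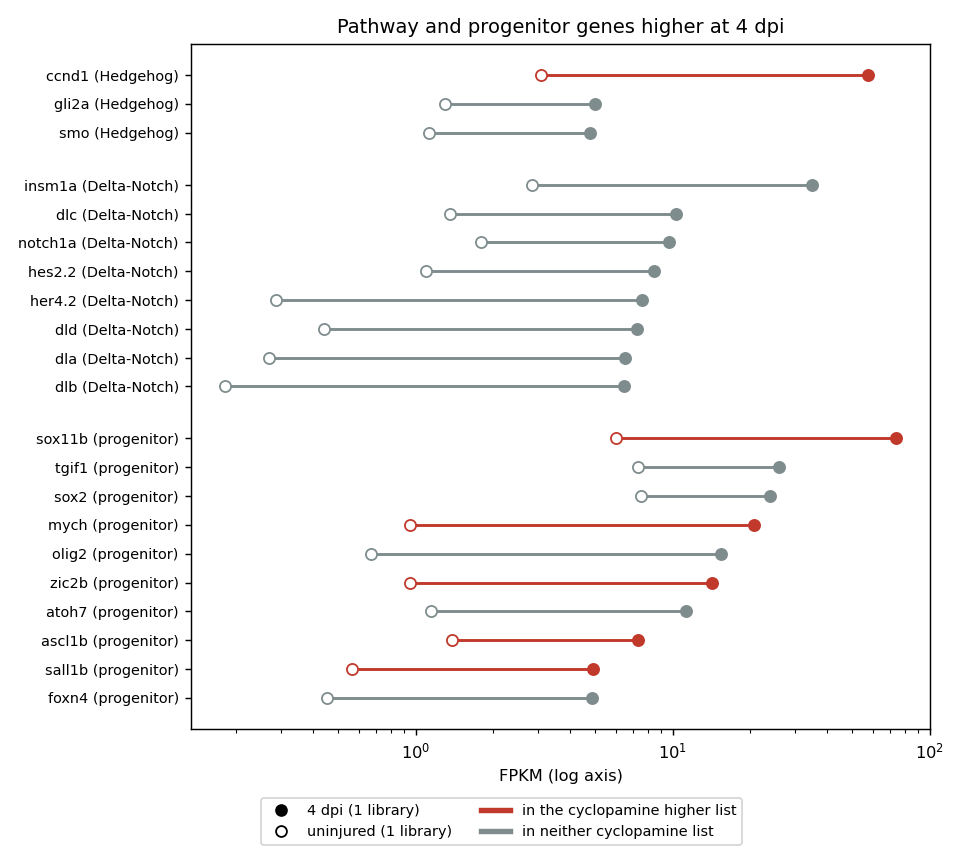
FPKM at 4 dpi (filled) and in uninjured retina (open), on a log axis with 1 library each, of the Hedgehog, Delta-Notch and progenitor genes that were higher at 4 dpi, in red where also in the cyclopamine higher list. All 8 Delta-Notch genes are grey, in neither cyclopamine list, while *ccnd1* and 5 progenitor genes are red. *insm1a* is drawn once.

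The Müller glia list has 19 symbols, and the 3 that were higher at 4 dpi were all in the cyclopamine higher list. Which cells of the whole retina held their RNA was not tested. *apoeb*, a lipid-carrying apolipoprotein, had 2111 FPKM at 4 dpi and 234 FPKM in uninjured retina, the highest 4 dpi level of a protein-coding gene in the class. The glial intermediate filament gene *gfap* had 84.5 FPKM at 4 dpi and 10.2 FPKM in uninjured retina, and *vim* had 95.6 and 15.7 FPKM. *fabp7a*, a fatty acid binding protein of radial glia, had 1191 FPKM at 4 dpi and 52.0 FPKM in uninjured retina, a log2 ratio of 4.52, and was shared too. *cx43*, a gap junction gene of glia, was listed as higher and *ca2*, carbonic anhydrase, as lower with cyclopamine only.

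Genes of the cytoskeleton and of the early injury response were mostly shared. Of 26 cytoskeletal genes higher at 4 dpi, 21 were also higher with cyclopamine (80.8%). They included *actb1*, with 665 FPKM at 4 dpi and 109 FPKM in uninjured retina, the tubulin genes *tuba1a*, with 263 and 14.2 FPKM, and *tubb5*, with 224 and 7.87 FPKM, and the keratin gene *krt8*, with 166 and 28.3 FPKM. The 5 in neither list included *tubb2b*, with 292 FPKM at 4 dpi and 88.7 FPKM in uninjured retina, and *stmn1a*, a regulator of microtubules in dividing and growing cells, with 44.07 and 1.47 FPKM. Of the 17 symbols of the ganglion cell list, only the axon growth genes *gap43* and *alcamb* were called at 4 dpi, and both were shared. *gap43* had 45.5 FPKM at 4 dpi and 3.89 FPKM in uninjured retina, and *alcamb* had 23.9 and 1.38 FPKM.

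Of 13 early response and cytokine signalling genes higher at 4 dpi, 11 were shared (84.6%), with a median log2 ratio of 3.85. *mmp9*, a secreted protease that cuts matrix proteins (chromosome 8, 24260272 to 24274708), had the largest ratio of all shared genes above 0 in both libraries, with 85.7 FPKM at 4 dpi and 0.363 FPKM in uninjured retina, a log2 ratio of 7.53. The AP-1 gene *jun* had 90.9 FPKM at 4 dpi and 6.21 FPKM in uninjured retina, and *junbb* had 65.4 and 12.8 FPKM. The cytokine receptor-like gene *crlf1a* had 29.3 FPKM at 4 dpi and 0.659 FPKM in uninjured retina. Their listed transcripts at 12 hpi stood at 47.8 FPKM for *mmp9*, 147 FPKM for *jun*, 123 FPKM for *junbb* and 43.6 FPKM for *crlf1a*, set against the same uninjured library. The 2 in neither list were *stat2*, with 54.1 FPKM at 4 dpi and 18.6 FPKM in uninjured retina, and *klf2b*, with 2.71 and 0.487 FPKM. *fosab*, *junba* and *cebpd*, which are immediate early or acute phase factors, were higher with cyclopamine and had no call at 4 dpi. *egr1*, an immediate early gene, was lower at 4 dpi, with 7.68 FPKM against 37.8 FPKM in uninjured retina, and lower with cyclopamine.

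Lysosomal genes, most of them proteases, formed a group that was wholly shared, a choice made after the values were seen. All 10 higher genes annotated to the lysosome were in the cyclopamine higher list, against 40.4% of the 668 annotated higher genes. These 10 include all 7 higher genes of the papain family of cysteine proteases, so the 2 counts are not separate. *ctsd*, an aspartic protease, had 197 FPKM at 4 dpi and 57.1 FPKM in uninjured retina, and *ctsla* had 190.4 and 41.0 FPKM. *ctsba* had 95.3 FPKM at 4 dpi and 22.4 FPKM in uninjured retina. *ctsk*, a collagen-cutting cathepsin, had 28.4 FPKM at 4 dpi and 0.642 FPKM in uninjured retina, the largest ratio of the group at 5.26 on the log2 scale. The others, among them *ctsz*, *ctsc*, *ctsh* and *asah1b*, a ceramidase, lay between 12.6 and 33.4 FPKM at 4 dpi.

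Microglia and macrophage genes were divided. Of 17 higher at 4 dpi, 8 were also higher with cyclopamine (47.1%), with median log2 ratios of 2.74 for the shared and 2.75 for the others. *apoc1*, an apolipoprotein, had 266 FPKM at 4 dpi and 25.8 FPKM in uninjured retina, and *lgals3bpb*, a galectin-binding protein, had 151 and 13.9 FPKM. With *ctsba* and *c1qc*, a complement subunit with 28.4 and 1.69 FPKM, they were shared. In neither list were *cd74a*, the invariant chain of class II antigen presentation, with 175 FPKM at 4 dpi and 35.2 FPKM in uninjured retina, *cd74b*, with 84.5 and 12.5 FPKM, the chemokine gene *ccl34b.1*, with 82.6 and 12.2 FPKM, and *csf1ra*, the receptor of a macrophage growth factor, with 17.8 and 5.10 FPKM. Summed over these 17 genes, chosen as higher at 4 dpi, the list had 1019 FPKM at 4 dpi and 145 FPKM in uninjured retina. Whether the lysosomal, interferon and complement genes beside it moved with these cells was not tested.

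Interferon response and antigen presentation genes were shared for 12 of 28 (42.9%), close to the background. *cd74a*, *cd74b*, *ccl34b.1* and *lgals3bpb* also count with the microglia list, and *stat2* and *stat1b* with the early response list. The counts of these lists are thus not separate. *isg15*, a ubiquitin-like modifier, had 88.5 FPKM at 4 dpi and 5.49 FPKM in uninjured retina, and the class I gene *mhc1uba* had 72.7 and 9.20 FPKM. Both were shared. *b2m*, the light chain of class I molecules, had 134 FPKM at 4 dpi and 19.7 FPKM in uninjured retina and was in neither list. Of 10 complement and coagulation genes, 6 were shared, led by *anxa2a*, an annexin, with 108 FPKM at 4 dpi and 3.85 FPKM in uninjured retina, and by *c7a*, a pore subunit of complement, with 28.6 and 2.71 FPKM. Extracellular matrix genes were shared for 6 of 18 (33.3%). *fn1a*, a fibronectin gene, had 20.1 FPKM at 4 dpi and 0.828 FPKM in uninjured retina and was shared. *mmp2*, with 19.3 and 3.22 FPKM, *col1a2*, a collagen I chain with 12.8 and 1.01 FPKM, and *dcn*, decorin, with 12.5 and 2.34 FPKM, were in neither list. The endothelial junction genes *cldn5a*, with 14.6 FPKM at 4 dpi and 1.67 FPKM in uninjured retina, and *cldn5b*, with 13.2 and 0.786 FPKM, were in neither list as well. Growth factor, cytokine and receptor genes were shared for 10 of 25 (40.0%). That list was matched by the start of the symbol and caught *ilf2*, an RNA-binding protein, and *tgfbi*, a matrix protein, among the 15 in neither list. Its most abundant receptor gene was *fzd5*, a Wnt receptor, with 40.7 FPKM at 4 dpi and 4.94 FPKM in uninjured retina.

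The lens list holds genes known from a tissue next to the neural retina, and every one that was higher at 4 dpi, 15 of 15, was also higher with cyclopamine. Summed, they had 274 FPKM at 4 dpi and 5.49 FPKM in uninjured retina, and 11 of the 15 were listed at 0 in uninjured retina. The crystallin gene *crygs2* had 69.2 FPKM at 4 dpi and 1.07 FPKM in uninjured retina, *crybb3* had 58.8 and 1.34 FPKM, and *crygm3* had 39.3 FPKM and was listed at 0. *crygs2* stood at 61.7 FPKM, *crybb3* at 121 FPKM and *crygm3* at 121 FPKM at 12 hpi for the listed transcripts. A further 4 lens genes, *crygm1*, *crygmxl1*, *gja3* and *lim2.3*, were in the cyclopamine higher list only. Crystallin genes are close copies, and *crygm3* and *crygs4* have the same locus in the authors' tables, so their reads may have been divided between copies. Genes of red blood cells and of the pigment epithelium had no call at 4 dpi, and the muscle gene *tnni2a.2* was lower, with 38.6 FPKM at 4 dpi and 143 FPKM in uninjured retina. Whether the RNA of the lens list came from lens tissue or from retinal cells was not tested, nor was the part of lens RNA in other shared genes.

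The cell cycle genes were split between the classes. For DNA replication and nucleotide supply, 9 of 32 were shared (28.1%), and for mitosis and chromosome segregation 17 of 44 (38.6%). *rrm1*, the large subunit of ribonucleotide reductase, had 26.1 FPKM at 4 dpi and 2.95 FPKM in uninjured retina and was shared, and both *rrm2* entries, the small subunit, with 18.8 and 13.8 FPKM at 4 dpi against 0.380 and 0.357 FPKM in uninjured retina, were in neither list. Among the subunits of the MCM helicase, which unwinds DNA at origins, *mcm5*, with 16.1 FPKM at 4 dpi and 0.448 FPKM in uninjured retina, and *mcm4*, with 15.08 and 0.618 FPKM, were shared, and *mcm2*, with 16.2 and 0.323 FPKM, was not. The sliding clamp gene *pcna* had 113 FPKM at 4 dpi and 20.6 FPKM in uninjured retina and was in neither list. Genes of 1 complex at like levels thus fell in different classes.

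In mitosis, *mki67*, a proliferation marker, had 23.6 FPKM at 4 dpi and 0.339 FPKM in uninjured retina, *kif11*, a spindle motor, had 14.9 and 0.452 FPKM, and *cenpf* had 13.7 and 0.311 FPKM. They were shared. *top2a*, a topoisomerase that both lists count, had 26.8 FPKM at 4 dpi and 0.567 FPKM in uninjured retina, and *tpx2*, a spindle assembly factor, had 25.4 and 0.601 FPKM. These were in neither list. The shared genes of the mitosis list had a median log2 ratio of 4.43 and the others 3.63. Their 4 dpi medians were 8.63 and 9.12 FPKM. The others include *tubb2b* and *stmn1a*, which the cytoskeletal list also counts. Of 26 histone and chromatin protein genes, 8 were shared (30.8%) and 18 were in neither list. With genes matched by symbol in place of identifier 17 were shared and 9 were in neither. Genes of both classes bear the symbol *HIST1H2BA*, and matching by symbol cannot tell them apart. The shared ones included the chromatin protein genes *hmgb2a*, *hmgb1b*, *hmgb2b* and *hmgn2*. By annotated protein family, 5 of 11 higher core histone genes (45.5%) and 3 of 9 linker histone genes (33.3%) were shared. *hmgn2*, a nucleosome-binding protein, had 350 FPKM at 4 dpi and 40.8 FPKM in uninjured retina and was shared. *h3f3a*, a replacement histone gene, had 272 and 48.0 FPKM and was in neither list. Outside those 26, *HIST2H2AB* had 273 FPKM at 4 dpi and 3.70 FPKM in uninjured retina. That was the largest ratio of the higher genes in neither list that were above 0 in both libraries. The H2A gene *si:ch211-113a14.16*, also outside the 26, had 95.0 and 0.920 FPKM and was shared. Histone genes are near-identical copies, so the separate values and classes of these genes are uncertain.

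Ribosome and translation was the list with the most higher genes, and it held the most in neither cyclopamine list, 60. The median log2 ratio of its higher genes was 2.18. Among all higher genes, the shared part was 29.6% and 33.2% in the bins of the smaller ratios. Of the 81 higher genes of the list, 21 were shared (25.9%), the same number as in the cytoskeletal list. Ribosomal proteins proper were 73 of these, 20 shared and 53 not, and their levels overlapped: the shared ones had a median of 396 FPKM at 4 dpi and 88.6 FPKM in uninjured retina, and the others 554 and 118 FPKM. Their median log2 ratios were 2.26 and 2.18, in a range of 1.77 to 3.39 over all 73. *rps2* had 930.5 FPKM at 4 dpi and 139 FPKM in uninjured retina, *rps20* had 864 and 118 FPKM, and *rps29* had 829 and 152 FPKM. These 3 were in neither list, and *rps15a*, with 742 and 194 FPKM, was shared. Summed over the 81 higher genes, the list had 38150 FPKM at 4 dpi and 8285 FPKM in uninjured retina. Those genes were chosen as higher at 4 dpi, so the direction of the sum was given in advance. Ribosomal protein genes have processed copies, so their reads can be shared with other loci.

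Noncoding RNA genes held the highest levels. The RNA of the signal recognition particle, which brings ribosomes to the endoplasmic reticulum, was listed as *Metazoa_SRP* at 11 loci, 8 of them shared. The highest had 4487 FPKM at 4 dpi and 678 FPKM in uninjured retina, the next had 3725 and 104 FPKM, and 8 of the 11 were listed at 0 in uninjured retina. *U3*, a small nucleolar RNA for ribosomal RNA processing, had 2735 FPKM at 4 dpi and 317 FPKM in uninjured retina and was in neither list. These loci are repeated copies, and FPKM of short features is uncertain. The symbol *Metazoa_SRP* was also in the cyclopamine lower list, through loci not among the 11. Of 10 higher genes annotated as serine protease inhibitors, a group picked after the values were seen, 3 were shared and 7 were in neither list. The 7, among them *si:dkey-203a12.2* and *si:dkey-203a12.8*, lie on chromosome 14, had 1.04 to 7.96 FPKM at 4 dpi and were listed at 0 in uninjured retina. Their neighbour *si:dkey-77g12.1*, with 4.13 FPKM at 4 dpi and also listed at 0 in uninjured retina, was shared.

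Stress and lipid genes were few at 4 dpi. Heat shock and unfolded protein response genes numbered 5 higher, of which 3 were shared, led by the protein disulfide isomerase gene *pdia3* with 78.2 FPKM at 4 dpi and 26.1 FPKM in uninjured retina. Another 9 genes of that list, among them the chaperone genes *hsp90b1*, *hyou1* and *dnajb1b* and the isomerase gene *pdia6*, were higher with cyclopamine and had no call at 4 dpi. Proteasome genes were shared for 2 of 4. The lipid list had 5 of 6 higher genes shared: *apoeb*, *apoc1*, *elovl1b*, *lpl* and *abca1b*. *elovl1b*, a fatty acid elongase, had 26.1 FPKM at 4 dpi and 4.80 FPKM in uninjured retina. *lpl*, lipoprotein lipase, had 10.7 and 2.94 FPKM, and *abca1b*, a cholesterol exporter, had 7.21 and 0.697 FPKM. Glycolysis and oxidative phosphorylation had no call at 4 dpi, and the glycolytic genes *aldoaa*, *eno1a* and *eno1b* were lower with cyclopamine only, while *hk2*, a hexokinase, was higher with cyclopamine only.

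**Figure D4:**
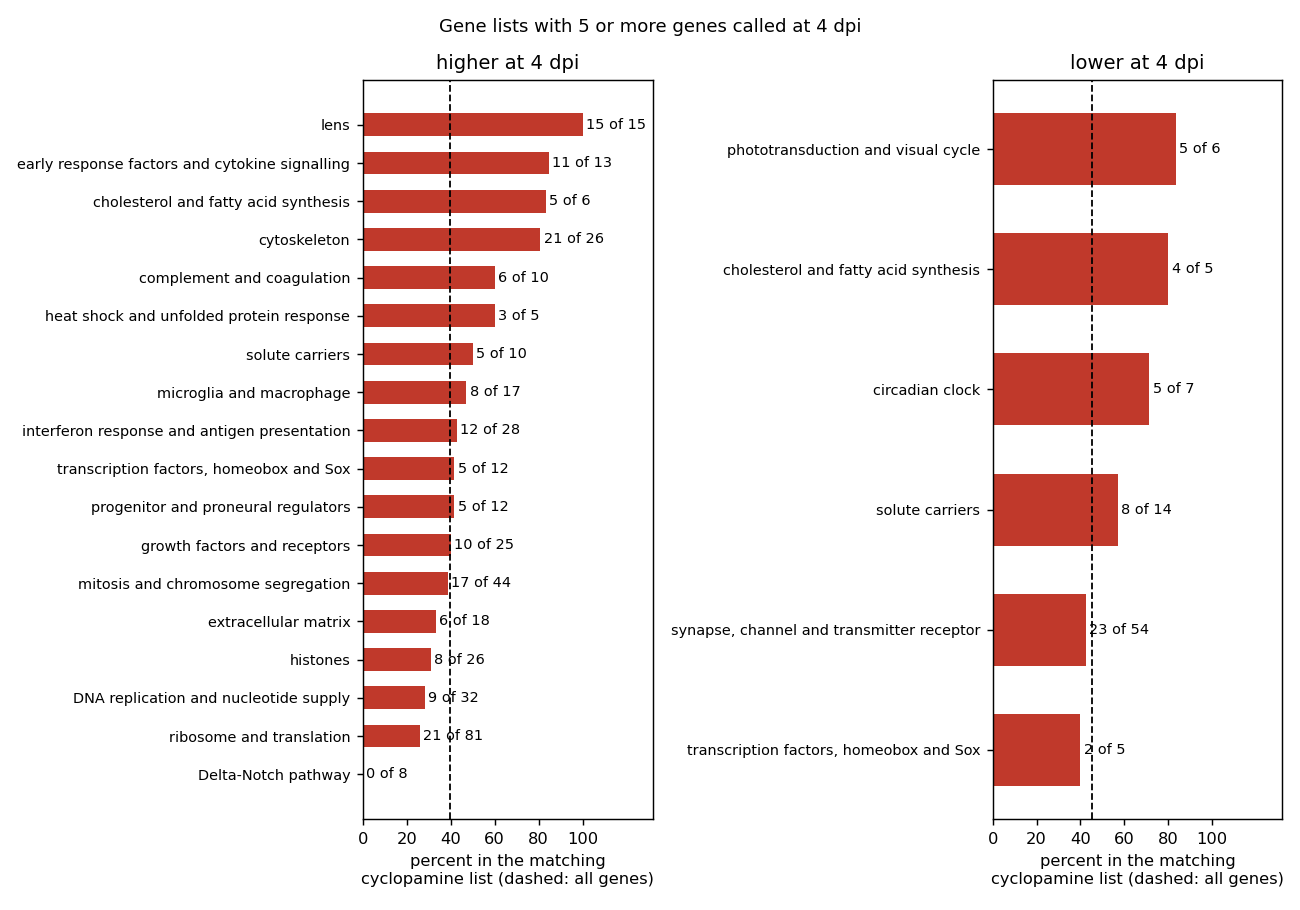
Percent of the genes of each list that were also called that way with cyclopamine, for lists with at least 5 genes higher (left) or lower (right) at 4 dpi, with counts at the bars and the share of all genes, 39.6% and 45.2%, dashed. Lens, early response and cytoskeletal genes lie above the line, ribosome and translation (21 of 81) below it, and the Delta-Notch list is at 0 of 8.

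Among genes lower at 4 dpi, those of synapses, channels and transmitter receptors were the largest list, with 54 genes, of which 23 were also lower with cyclopamine (42.6%), near the background of 45.2%. *syt14a*, a synaptotagmin, had 37.5 FPKM at 4 dpi and 118 FPKM in uninjured retina, *pcloa*, a presynaptic scaffold, had 12.0 and 79.8 FPKM, and *syt2a* had 11.8 and 44.9 FPKM. These 3 were shared. In neither list were the potassium channel gene *kcnb2*, with 56.2 FPKM at 4 dpi and 538 FPKM in uninjured retina, *cplx4b*, a complexin of ribbon synapses, with 57.7 and 238 FPKM, *rims2b*, an active zone protein, with 36.0 and 145 FPKM, and *slc17a7a*, a vesicular glutamate transporter, with 35.8 and 107 FPKM. Paralogues fell on both sides, as *pclob*, the second piccolo gene, had 9.67 FPKM at 4 dpi and 86.5 FPKM in uninjured retina and was in neither list. The shared genes of the list had a median log2 ratio of -2.21 and the others -1.87. A further 15 of these genes were lower with cyclopamine only.

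Solute carrier genes were shared for 8 of 14 lower genes (57.1%). *SLC45A4* had 9.47 FPKM at 4 dpi and 118 FPKM in uninjured retina, *slc6a8*, a creatine transporter, had 17.1 and 78.8 FPKM, and *slc12a5a*, the neuronal chloride exporter, had 13.7 and 47.9 FPKM. The 10 solute carrier genes that were higher at 4 dpi divided evenly, with 5 shared, and 16 solute carrier genes were lower with cyclopamine only.

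The phototransduction and visual cycle list had 6 lower genes, of which 5 were shared. Besides *guca1d*, the cyclase activator gene *guca1e* had 13.6 FPKM at 4 dpi and 77.0 FPKM in uninjured retina. Counted with this list by symbol were also *tmtops2a*, an opsin, with 10.1 and 44.4 FPKM, and *PDCL3*, a phosducin-like gene, with 20.6 and 55.7 FPKM. *cngb3*, the modulatory subunit of the cone channel, had 10.5 FPKM at 4 dpi and 49.4 FPKM in uninjured retina and was in neither list. With cyclopamine only, 12 more were listed as lower, among them *pde6c*, the cone phosphodiesterase, *opn1lw2*, a red cone opsin, *gnb3b*, a transducin subunit, *gucy2f*, a photoreceptor guanylate cyclase, *cngb1a* of the rod channel and *sagb*, an arrestin. *arr3b*, a cone arrestin, was in both cyclopamine lists. The rod factor gene *nr2e3* was higher at 4 dpi, with 37.2 FPKM against 11.9 FPKM in uninjured retina, and in neither list.

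Clock genes were lower for 7 genes, of which 5 were shared. *per2*, a light-induced period gene, had 15.0 FPKM at 4 dpi and 111 FPKM in uninjured retina, *nr1d1*, a repressor of the clock, had 10.2 and 55.0 FPKM, *bhlhe41*, another repressor, had 13.7 and 37.4 FPKM, and *per1a* had 9.77 and 31.3 FPKM. *per3*, with 38.1 FPKM at 4 dpi and 176 FPKM in uninjured retina, and *hlfa*, with 42.4 and 187 FPKM, were in neither list. *aanat2*, the timed enzyme of melatonin synthesis, was higher at 4 dpi, with 141 FPKM against 26.8 FPKM in uninjured retina, and shared. With cyclopamine only, *cry1aa* and *cry1ab* were lower and *nfil3* and *nr1d4b* higher. The labels give a cycle of 14 hours light and 10 hours dark but no hour of collection, so hour and condition cannot be told apart.

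Sterol and lipid synthesis genes were lower for 5 genes, of which 4 were shared. *fdft1*, squalene synthase, had 2.62 FPKM at 4 dpi and 33.8 FPKM in uninjured retina, a log2 ratio of -3.64 that was among the largest of the shared lower genes. *srebf1*, the regulator of lipid synthesis genes, had 16.1 FPKM at 4 dpi and 54.6 FPKM in uninjured retina, *elovl8a*, a fatty acid elongase, had 3.92 and 27.4 FPKM, and *ldlrb*, an LDL receptor, had 2.08 and 8.96 FPKM. *msmo1*, a later enzyme of the sterol pathway, had 3.32 FPKM at 4 dpi and 12.6 FPKM in uninjured retina and was in neither list. *sqlea*, *hmgcs1* and *dhcr7*, further enzymes of that pathway, were lower with cyclopamine only. At 12 hpi the listed transcripts stood at 6.09 FPKM for *fdft1* and 17.2 FPKM for *srebf1*, against 26.6 and 54.6 FPKM in the same uninjured library.

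**Figure D5:**
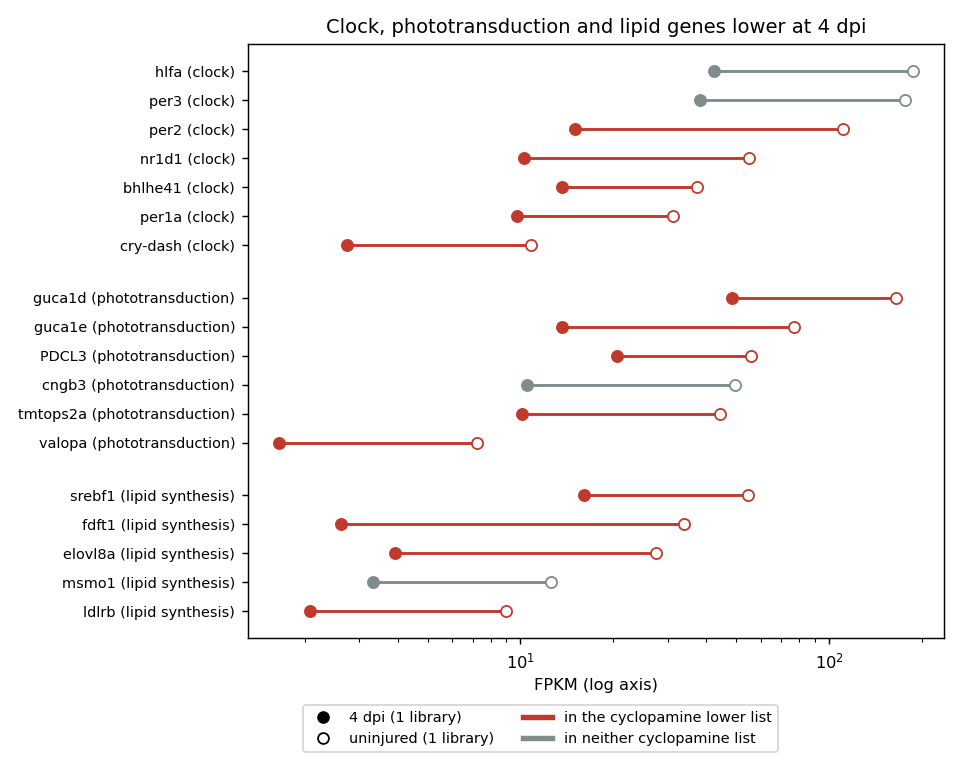
FPKM at 4 dpi (filled) and in uninjured retina (open), on a log axis with 1 library each, of clock, phototransduction and lipid synthesis genes lower at 4 dpi, in red where also in the cyclopamine lower list. *hlfa*, *per3*, *cngb3* and *msmo1* are grey, in neither list, and the other 14 genes are red.

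Genes annotated to DNA-templated transcription, a group chosen after the values were seen, were lower and shared for 8 of 10, against 44.9% of the 410 annotated lower genes. Related annotations mostly lay nearer that share. Regulation of transcription had 4 of 10 shared, transcription factor activity 6 of 14 and DNA binding 7 of 14, while nucleic acid binding had 12 of 17. The 8 genes included nuclear receptors. *esrrd*, an estrogen-related receptor, had the highest uninjured level of the shared lower genes, with 89.3 FPKM at 4 dpi and 344 FPKM in uninjured retina, and *esrrgb* had 6.21 and 64.8 FPKM. The coactivator genes *ppargc1a*, with 3.66 FPKM at 4 dpi and 25.4 FPKM in uninjured retina, and *ppargc1b*, with 10.0 and 41.3 FPKM, known for their work with such receptors on mitochondrial genes, were shared. Of the homeobox, Sox and related factors, *foxo1a*, with 4.63 FPKM at 4 dpi and 33.2 FPKM in uninjured retina, and *sox6*, with 2.84 and 30.4 FPKM, were shared, and *foxn3* and *foxj3* were in neither list. *impdh1a*, an enzyme of guanine nucleotide synthesis, had 52.9 FPKM at 4 dpi and 238 FPKM in uninjured retina and was shared, and *U2*, a spliceosomal RNA, had 1035 and 4937 FPKM and was in neither list. At 4 dpi, 11 shared lower genes and 4 in neither list were listed at 0. One of the shared was *dre-mir-96*, the locus of a microRNA of sensory cells, which had 22.8 FPKM in uninjured retina. Mature microRNAs are not measured by such libraries.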

How the data were processed

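Total RNA of whole retina was sequenced, 1 library per condition. According to the submitters' processing notes, Bowtie2 2.2.2, TopHat2 2.1.0, Cufflinks 2.2.1 and GRCz10 were named, without roles. The authors deposited FPKM values per gene for 4 dpi and per transcript for 12 hpi, each beside the uninjured library, for called features. Their columns of log2 fold changes, test statistics, p-values and q-values hold their own comparison and were not used. The deposited cyclopamine lists hold identifiers and symbols. No count or depth is given.

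Identifiers of the 4 dpi tables were matched to the cyclopamine lists (Python 3, pandas). Log2((4 dpi + 0.1)/(uninjured + 0.1)) was computed per gene. The classing was tested on simulated data. Symbols were matched to 35 gene lists, and a gene found in several lists counts in each. For 12 hpi, the listed transcript of a gene with the highest mean FPKM over the 12 hpi and uninjured libraries is given.

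Named were all genes in opposite lists, per class the 5 highest in FPKM and the 5 with the largest ratios, Hedgehog, Delta-Notch and progenitor genes, and up to 4 per list and class. Some genes that this rule names are not reported here. Further names, and groups from the tables' annotation, were chosen after values were seen. The members and lists were chosen with earlier results of these data known.

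Counts of members in the 12 hpi lists are not given, because the comparisons share the uninjured library. Promoter motifs were not analysed here. Alternatives were matching by symbol, leaving out repeated identifiers, a minimum of 5 FPKM, a pseudocount of 1 or none, and, added later, genes with 1 transcript, protein-coding genes and genes above 0.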

Additional observations from a re-analysis of the deposited data

Results flagged for a closer look

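Genes listed in opposite directions against the same uninjured library were *prdx1* (log2 ratio of 2.77 at 4 dpi) and *si:ch211-161h7.4* (2.18), higher at 4 dpi and lower with cyclopamine, and *dfnb31b* (-2.19) and *purba* (-2.84), lower at 4 dpi and higher with cyclopamine. They were singled out because the direction of the listing differs between the conditions. The difference between the libraries was not tested, and the lists give no value with cyclopamine.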

How the results depend on the processing

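The share also called that way with cyclopamine was 39.1% to 45.6% of higher and 44.8% to 56.6% of lower genes over the alternatives run. Genes with 1 annotated transcript, an alternative added later, gave 186 higher genes in the same list and 222 in neither, and 128 and 98 lower genes. These counts are smaller by construction, but among lower genes the shared now outnumber the others. There, 6 lists in place of 12 for higher and 1 in place of 4 for lower genes exceeded the share of all genes, with fewer lists reaching 5 genes. Matching by symbol gave 16 higher genes in the opposite or both cyclopamine lists in place of 5, and 5 lower genes in place of 3. The 11 further higher genes were all *Metazoa_SRP* and the 2 further lower genes *5S_rRNA*, symbols that many loci bear. It also placed 17 histone and chromatin protein genes in the same list and 9 in neither, in place of 8 and 18. There, genes of both classes bear the symbol *HIST1H2BA*. Matching by symbol left 866 of 893 higher and 566 of 573 lower genes in their class. Leaving out identifiers that repeat or are in both lists gave 3 higher genes in the opposite list. With a pseudocount of 1 FPKM the median log2 ratio of shared higher genes was 2.34, and that of higher genes in neither list 1.91. Where genes under 5 FPKM in both libraries were dropped, medians rose by construction of the minimum. Higher genes in neither list then had medians of 26.1 FPKM at 4 dpi and 4.11 FPKM in uninjured retina. Both were above those of shared higher genes, 23.7 and 2.79 FPKM, so the uninjured medians were no longer alike. Of 76 comparisons of a main value with its value under an alternative, 64 stayed within 1.5-fold and 12 did not. The counts of genes per list and class were less stable. Of their comparisons with an alternative, 151 stayed within 1.5-fold and 62 did not. No paired analysis was possible because there was a single library for each condition. Motifs in promoters were not run for want of sequences, and depth, being unknown, gives no interval.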
